A study of Mus musculus with 6 samples.

Results

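Rhox5, Tcp11x2, Nxf3, Toporsl and Tmco5b are 5 genes known mainly from the testis that were near silent in control neural crest and raised in neural crest without intact Ehmt1 and Ehmt2. They are 5 of the 21006 gene symbols in the deposited count table, and were picked by name because their counts were near 0 in the control libraries and raised in the double knockout (DKO) libraries. The difference between DKO and control was therefore used to choose them, and it is given below as a description with no test. The libraries hold polyadenylated RNA of cells from E11.5 mouse branchial arches, sorted on the red reporter TdTomato. All 6 carried Rosa26 TdTomato/+ and Wnt1-cre, a transgene that switches the reporter on in the neural crest lineage. The 3 DKO libraries had the genotype Ehmt1f/f and Ehmt2f/f, and the 3 control libraries had Ehmt1+/+ and Ehmt2+/+, so the controls also carried the Cre. Whether each biological replicate is a single embryo or a pool is not stated, so p-values measure the spread between these libraries.

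Ehmt1 and Ehmt2 encode GLP and G9a, the paired enzymes that place mono- and dimethylation on lysine 9 of histone H3, a mark of silent chromatin. Many genes used only by germ cells or by the supporting cells of the gonad are kept shut in other tissues by this mark, by DNA methylation and by the Polycomb complex PRC1.6. Rhox5, once called Pem, is the founding member of a cluster of homeobox transcription factor genes on the X chromosome that is used in the testis, the epididymis, the ovary and the placenta. Nxf3 is a tissue-restricted relative of Nxf1, whose protein carries most mRNA out of the nucleus. Tcp11x2 is an X-linked relative of the sperm gene Tcp11. Toporsl is a relative of Topors, which encodes a ubiquitin and SUMO ligase, and Tmco5b encodes a protein with a predicted membrane segment and coiled coil.

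Rhox5, Tcp11x2 and Nxf3 lie on the X chromosome, Toporsl on chromosome 4 and Tmco5b on chromosome 2 (GENCODE M21, mm10). Rhox5 spans chrX:37804842-37808876 on the plus strand in 4 exons. Tcp11x2 spans chrX:135654698-135693790 on the minus strand in 10 exons, and Nxf3 spans chrX:136072099-136085255 on the same strand in 20 exons. Their start sites are 391 kb apart. Toporsl spans chr4:52596274-52612430 in 3 exons, and Tmco5b spans chr2:113285732-113297190 in 12 exons, both on the plus strand. RefSeq starts Rhox5 50.2 kb, Nxf3 54.3 kb and Tmco5b 0.637 kb further upstream than GENCODE does. A count per gene does not tell which start was used.

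The sequences just before the start sites are shown because silencing by DNA methylation acts on CG dinucleotides, which are in capitals. They are the 250 bases upstream of a RefSeq start on mm10, read on the gene's strand, 5′ to 3′. The Tmco5b window ends just before the GENCODE start, and the outermost RefSeq start of Tmco5b lies 0.637 kb further upstream. Rhox5 is chrX:37754358-37754607, Tcp11x2 is chrX:135693791-135694040 and Tmco5b is chr2:113285482-113285731.
Rhox5: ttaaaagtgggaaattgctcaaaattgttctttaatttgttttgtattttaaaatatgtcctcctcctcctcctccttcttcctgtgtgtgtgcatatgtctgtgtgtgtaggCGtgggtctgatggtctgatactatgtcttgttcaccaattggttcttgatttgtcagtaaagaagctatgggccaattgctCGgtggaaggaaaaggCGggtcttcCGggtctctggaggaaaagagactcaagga
Tcp11x2: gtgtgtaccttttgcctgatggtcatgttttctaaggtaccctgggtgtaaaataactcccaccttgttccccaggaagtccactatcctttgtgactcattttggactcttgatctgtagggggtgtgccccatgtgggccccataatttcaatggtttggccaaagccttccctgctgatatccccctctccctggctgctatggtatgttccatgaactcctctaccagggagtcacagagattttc
Tmco5b: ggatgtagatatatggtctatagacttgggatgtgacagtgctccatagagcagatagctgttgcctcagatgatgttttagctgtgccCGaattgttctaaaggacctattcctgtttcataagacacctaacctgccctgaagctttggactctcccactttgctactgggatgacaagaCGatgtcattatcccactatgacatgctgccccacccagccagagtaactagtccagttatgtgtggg

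All of these windows were poor in CG dinucleotides. The Rhox5 window held 4, the Tcp11x2 window 0 and the Tmco5b window 2, and the windows at both RefSeq starts of Toporsl held 1 and 2. Over 20469 windows of the same length, from 16833 genes of the count table, the median was 10 CG dinucleotides. Fewer than the 4 of Rhox5 were held by 27.5% of the windows, and 6.20% had none, like Tcp11x2. G and C made up 42.8% of the Rhox5 window, 49.2% of the Tcp11x2 window and 46.8% of the Tmco5b window, against a median of 56%. No window for Nxf3 was in the table used.

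**Figure D1:**
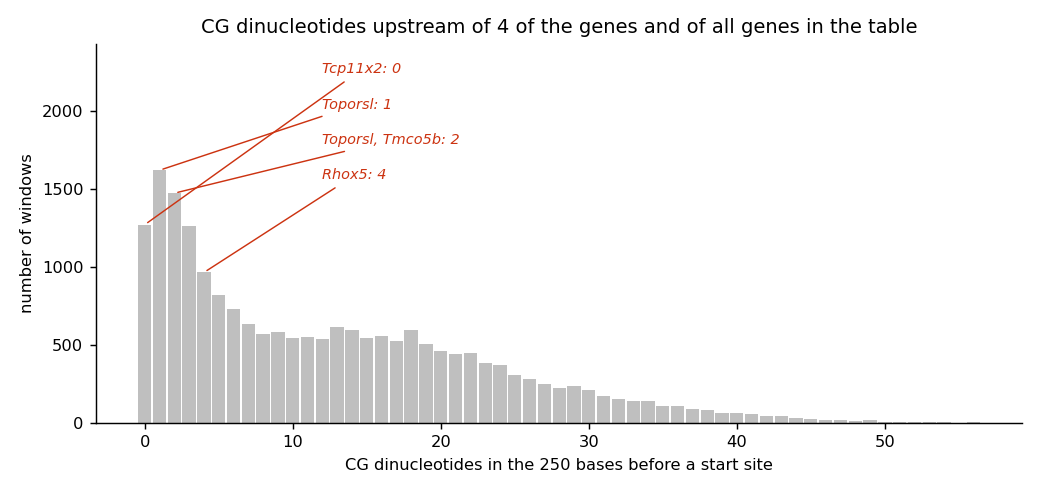
Number of CG dinucleotides (x axis) in the 250 bases before the RefSeq start sites, with the number of windows on the y axis. The grey bars are 20469 windows of genes in the count table, and the red labels mark the windows of Rhox5 (4), Tcp11x2 (0), Toporsl (1 and 2) and Tmco5b (2), all left of the median of 10.

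A search of both strands of these windows for 6 motifs, chosen after the sequences were seen, found most matches upstream of Rhox5. TTCCGG, the core of an ETS factor site, began 33 bases before the Rhox5 start, and GGCGGG, the core of an SP1 site, began 41 bases before it. CCAAT occurred 3 times there, with 2 matches on opposite strands that share bases. These motifs were held by 15.3%, 43.3% and 35.5% of all windows. The windows of Tcp11x2 and Tmco5b held none of the 6, and 1 Toporsl window held a single CCAAT. The E2F core TCCCGC, held by 22.4% of all windows, was in none of the 5. The same was true of the E-box CACGTG, held by 6.80% of all windows. The TATA box TATAAA, held by 11.5%, was also in none. A match is a run of letters and not a measured binding site.

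The targeted genes checked the genotype labels, with no overlap between groups. Ehmt2 stood at 124, 119 and 140.4 CPM (counts relative to the TMM-scaled library total) in DKO replicates 1 to 3 and at 347 to 359.7 CPM in the controls, and Ehmt1 at 144, 133 and 168 CPM against 250.03 to 268 CPM. Reads outside a deleted part also enter these counts. The total count per library lay between 23414466 and 44538260. All 17 crest mesenchyme markers were detected, with a summed level of 2107 to 2639 (DKO) and 2435 to 2876 CPM (control). The 10 neuron markers summed to 944 to 1029.4 (DKO) and 1025.8 to 1228 CPM (control). The median log2 fold change was -0.18 for the crest and -0.35 for the neuron markers. Of these neuron markers 1, Pou4f1, was called lower, where 0.818% of all tested genes were. Of 7 tested muscle markers 1, Tnni1, was called higher, where 2.19% of all tested genes were. Each of these 2 calls ended in 6 of 14 alternative settings. Markers of red blood cells summed to 18.9, 56.1 and 321 CPM in DKO replicates 1 to 3 and to 104 to 180.4 CPM in the controls, so DKO replicate 3 held the most. All 8 endothelium markers were detected and 1, Tie1, was called higher. The 8 summed to 32.6 to 43.3 (DKO) and 18.4 to 27.6 CPM (control), without overlap. The lack of overlap between these sums rests on Tie1, which gave 7.895 CPM of the sum in DKO replicate 1 and 1.096 CPM in control replicate 1. Without Tie1 the sum in DKO replicate 1 falls below that in control replicate 1. Each of the 8 had a positive log2 fold change, from 0.21 (Tek) to 3.04 (Tie1), with a median of 0.61. In 3 of them, Tie1 included, every DKO library lay above every control, against 14.5% of all tested genes. The part of endothelium in the results below was not tested. DKO replicate 3 and control replicate 2 had 1 and 0 counts from Y-linked genes, and the other 4 libraries had 4635 to 8794. The replicates are therefore not matched in sex, and each group has a single library without Y-linked transcripts. In bulk RNA, more cells that express a gene and more RNA per cell cannot be told apart.

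Of the 14555 genes that passed the filter on low counts, 2.19% were called higher in DKO and 0.818% lower (319 and 119 genes; edgeR quasi-likelihood test, adjusted p below 0.05), or 416 and 80 when libraries were scaled by their totals only. In either direction 3.01% were called, and in 14.5% every DKO library lay above every control. All 5 genes described here were among those called higher, which follows from how they were chosen. All 5 passed the filter, and Tcp11x2, Nxf3, Toporsl and Tmco5b passed only through the DKO libraries: a gene that passes in this way had to differ. This held for 114 of the tested genes, and 60 of those were called higher. Of 809 tested genes with a control mean under 0.5 CPM, 12.2% were called higher. Over all 14555 tested genes DESeq2 called 624 higher and 482 lower, and limma-voom 300 and 111. The share of all tested genes at an unadjusted p below 0.05 is not given, so such counts below stand without it.

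Rhox5 was the most abundant of the 5 and the only one with counts in every control library above single digits. It had 341, 466 and 353 counts in DKO replicates 1 to 3, or 9.19, 10.6 and 7.89 CPM. The controls had 11, 12 and 17 counts, or 0.246, 0.538 and 0.581 CPM. The lowest DKO library was thus far above the highest control, and the control signal was low but present in each library. The means were 9.24 ± 1.38 CPM and 0.455 ± 0.182 CPM (SD, n = 3 each). The ratio of summed counts, scaled by library, was 22.2, with a 95% exact binomial interval of 16.2 to 31.3 that covers counting error only. The fitted log2 fold change was 4.40 (SE 0.32).

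Tcp11x2 had the largest ratio among the 4 genes with control counts, and the tightest DKO replicates. It had 245, 266 and 258 counts in the DKO libraries, or 6.60, 6.08 and 5.77 CPM, a coefficient of variation of 6.87%. Control replicates 1 and 2 had 0 counts and control replicate 3 had 3, or 0.103 CPM. The ratio of 769 to 3 counts was 196 after scaling (counting interval 67.0 to 954). Control replicate 3 held all of the control counts.

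Nxf3 was likewise close to absent in controls. Its DKO libraries had 132, 243 and 135 counts, or 3.56, 5.55 and 3.02 CPM, with replicate 2 the highest. The controls had 3, 2 and 0 counts. The means were 4.04 ± 1.33 CPM and 0.0523 ± 0.0467 CPM (SD, n = 3 each), a ratio of 78.1 (33.3 to 242) and a fitted log2 fold change of 6.20 (SE 0.55).

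Toporsl was the faintest of the 5 in DKO libraries and had no count in any control. It had 19, 24 and 30 counts in DKO replicates 1 to 3, or 0.512, 0.548 and 0.671 CPM. With 0 counts in 3 controls, a level of up to 0.0312 CPM (3 counts over the group) is allowed. Set against that level, the DKO counts of Toporsl gave a lower bound of 18.6-fold, which leaves out the counting error of the DKO libraries. Tmco5b had 86, 77 and 42 counts in the DKO libraries, or 2.32, 1.76 and 0.939 CPM, the widest spread of the 5 (coefficient of variation 41.5%). Its controls had 7, 1 and 1 counts. The groups did not overlap, and the ratio was 17.5 (9.01 to 38.7), with a fitted log2 fold change of 4.15 (SE 0.57). Control replicate 1 held 7 of the 9 control counts, and without it the fitted log2 fold change was 5.31.

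**Figure D2:**
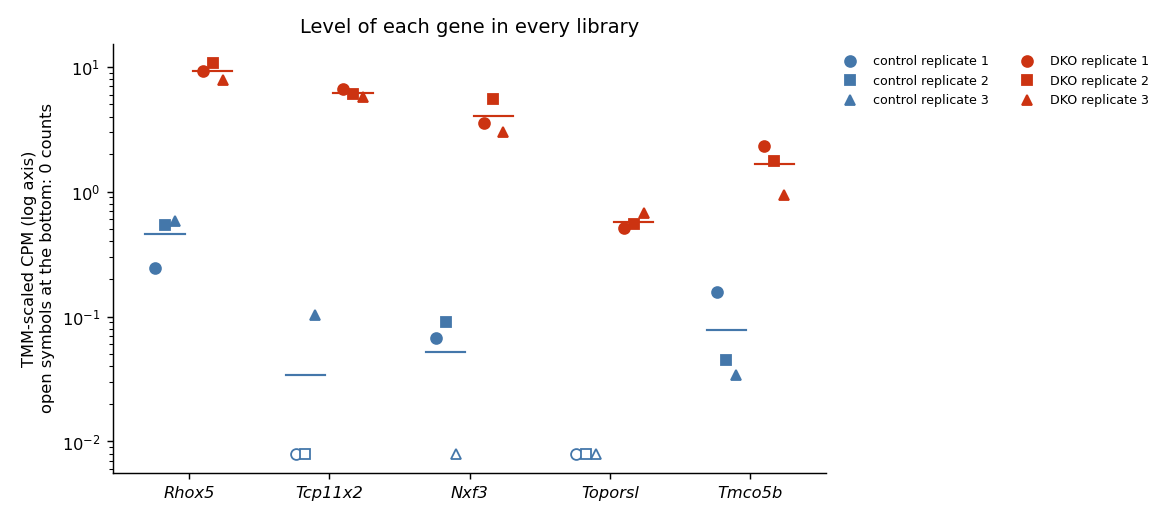
TMM-scaled CPM on a log axis for each of the 5 genes, with 1 symbol per library, blue for control and red for DKO, and a line at each group's mean. Open symbols at the bottom are libraries with 0 counts. In each gene the 3 DKO libraries lie above the 3 controls, from 0.512 to 0.671 CPM for Toporsl up to 7.89 to 10.6 CPM for Rhox5.

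The order of the DKO libraries differed between the genes. DKO replicate 3 was the lowest for Rhox5, Tcp11x2, Nxf3 and Tmco5b and the highest for Toporsl. It is also the library with the highest Ehmt1 and Ehmt2 levels, the most red blood cell RNA and no Y-linked transcripts, and the part of these in its lower values was not tested. The highest library was replicate 2 for Rhox5 and Nxf3, and replicate 1 for Tcp11x2 and Tmco5b. The highest and lowest DKO library differed 1.14-fold for Tcp11x2, 1.31-fold for Toporsl, 1.35-fold for Rhox5, 1.84-fold for Nxf3 and 2.47-fold for Tmco5b. The 3 X-linked genes were read in the DKO libraries with and without Y-linked transcripts alike. In control replicate 2, which had none, they had 12, 0 and 2 counts for Rhox5, Tcp11x2 and Nxf3.

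Per kilobase of annotated exon, the levels in DKO libraries fell in 4 steps. Rhox5 stood at 12.3 ± 1.83 CPM per kb, Tcp11x2 at 3.46 ± 0.238, Tmco5b at 1.35 ± 0.561, Nxf3 at 1.33 ± 0.438 and Toporsl at 0.208 ± 0.0299 CPM per kb (SD, n = 3 each). Tmco5b and Nxf3 overlapped, and the libraries of every other pair of neighbours in this order did not. For scale, the ubiquitous exporter gene Nxf1 stood at 46.8 and Topors at 44.6 CPM per kb in the same DKO libraries. Exon lengths were taken from GENCODE which may differ from the annotation behind the counts.

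Exact stretches shared with other genes were not found. Of the 50-base windows in the GENCODE transcripts of each gene (705 for Rhox5, 1727 for Tcp11x2, 3047 for Nxf3, 2727 for Toporsl and 1188 for Tmco5b), 0 occurred on either strand in a transcript of another gene. Tmco5b shares 15 exonic bases with the small RNA gene Gm26505 on its own strand. By their GENCODE exons, the other 4 share no exonic base with another GENCODE gene on either strand. The longer RefSeq span of Nxf3 runs over 5730412P04Rik and into Bex4, both on the opposite strand, and RefSeq exons were not compared.

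The Rhox cluster around Rhox5 stayed close to silent. Of 30 other Rhox genes in the table, 10 had no count in any library and 0 passed the filter, so none was tested. Their counts summed to 33, 38 and 27 in DKO replicates 1 to 3 and to 11, 9 and 2 in the controls, or 0.603 to 0.889 CPM against 0.0684 to 0.404 CPM. These sums did not overlap between groups, but the 3 DKO sums together are fewer counts than Rhox5 alone had in any DKO library. The most abundant was Rhox2c, with 13, 11 and 6 counts in DKO and 5, 1 and 0 in control libraries. Rhox2 copies are near identical, so counts of single copies are uncertain. Rhox6, the nearest cluster gene downstream at 22.1 kb, and Rhox9, which with Rhox6 is used in placenta and germ cells, had 0 counts in all libraries. Unc5c, a netrin receptor gene reported to be held down by Rhox5 in Sertoli cells, had means of 86.5 ± 9.83 (DKO) and 105 ± 8.30 CPM (control; log2 fold change -0.28, SE 0.10, edgeR adjusted p = 0.172). Its DKO libraries, at 75.4 to 94.0 CPM, lay below its controls, at 95.4 to 111 CPM. In either direction, 27.2% of all tested genes did not overlap between groups.

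Relatives of the other genes were not called either. Of 3 tested Tcp11 family genes, 19 mRNA export genes and 5 Topors and Tmco genes, 0 were called by edgeR and 0 by limma-voom. At an unadjusted p below 0.05 there were 1, 5 and 0, and DESeq2 called 1 mRNA export gene lower. Tcp11 had 39, 46 and 45 counts in DKO and 68, 40 and 49 in control libraries, a mean of 1.04 ± 0.0260 CPM against 1.66 ± 0.137 CPM (SD, n = 3 each), and the log2 fold change was -0.68 (SE 0.22; by edgeR, adjusted p = 0.146). Its direction was thus opposite to that of Tcp11x2, without passing the test. Nxf1 stood at 207 ± 8.31 and 218 ± 15.1 CPM (log2 fold change -0.07, adjusted p = 0.635). Nxf2, an X-linked relative of Nxf3, stood at 0.714 ± 0.216 and 1.01 ± 0.185 CPM (log2 fold change -0.52, adjusted p = 0.37). Nxf7, which starts 486 kb from Nxf3 and 95.0 kb from Tcp11x2, had 3, 9 and 8 counts in DKO and 1, 2 and 1 in control libraries and was not tested. Topors stood at 172 ± 17.1 and 154 ± 9.08 CPM (log2 fold change 0.16, adjusted p = 0.329), and Tmco5 had 0 counts throughout.

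**Figure D3:**
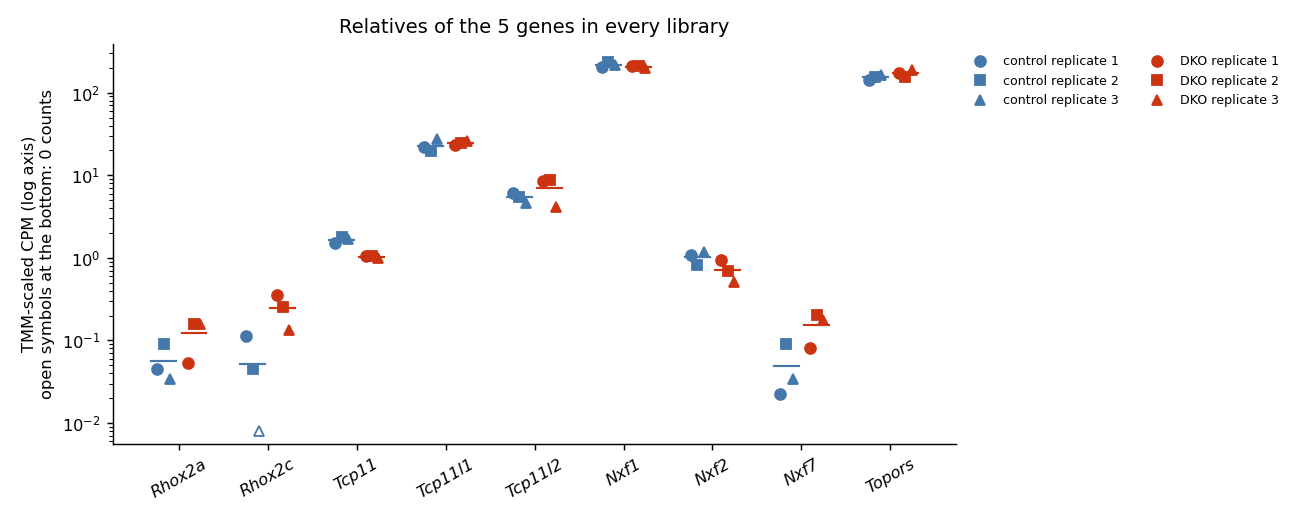
TMM-scaled CPM on a log axis for 9 relatives of the 5 genes, with 1 symbol per library (blue control, red DKO), a line at each group's mean and open symbols for 0 counts. Nxf1 and Topors lie near 200 CPM in both groups, and Rhox2a, Rhox2c and Nxf7 stay below 0.4 CPM in every library.

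Few genes beside the 5 on the chromosome could be tested. Within 500 kb of a start site lay 62 other genes of the table, of which 21 were tested, and 1 was called higher and 0 lower by edgeR, where 3.01% of all tested genes were called in either direction. At an unadjusted p below 0.05 there were 5, and DESeq2 and limma-voom each called 1. The called gene was Ryr3, which encodes an intracellular calcium release channel and starts 68.6 kb upstream of Tmco5b. It stood at 5.39, 7.26 and 8.11 CPM in DKO replicates 1 to 3 and at 3.02, 2.29 and 2.29 CPM in the controls, without overlap, a log2 fold change of 1.44 (SE 0.22; adjusted p = 0.0142, edgeR). The call ended without control replicate 2 or 3 and against a 1.5-fold change, with an adjusted p of up to 0.0709. In DKO the highest Ryr3 library was replicate 3, where Tmco5b was lowest. Fmn1, 42.0 kb downstream of Tmco5b, had a log2 fold change of 0.33 (adjusted p = 0.301).

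Tcp11x2 and Nxf3 share a stretch of the X chromosome that holds many brain-expressed Bex, Tceal, Armcx and Gprasp genes. Between their start sites the tested genes Armcx5, Gprasp1, Bhlhb9, Gprasp2, Arxes2, Arxes1 and Bex2 had log2 fold changes between -0.11 and 0.24, and 0 of them were called. On the other side of Tcp11x2, the untested Gm7903 and AV320801 had only 16 and 4 counts over all libraries. In both, every DKO library lay above every control, and the other untested genes within 500 kb of Tcp11x2 overlapped between groups. Bex2, which starts 17.02 kb from Nxf3, had means of 93.3 (DKO) and 78.9 CPM (control) (adjusted p = 0.155). Armcx5 and Gprasp1, which share a start site 48.9 kb from Tcp11x2, had log2 fold changes of -0.01 and -0.02. Of the 2 tested genes near Toporsl, the condensin gene Smc2 had a log2 fold change of -0.21 (adjusted p = 0.193). Of the 2 near Rhox5, Zbtb33, which encodes the methyl-CpG binding protein Kaiso, had -0.31 (adjusted p = 0.172).

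**Figure D4:**
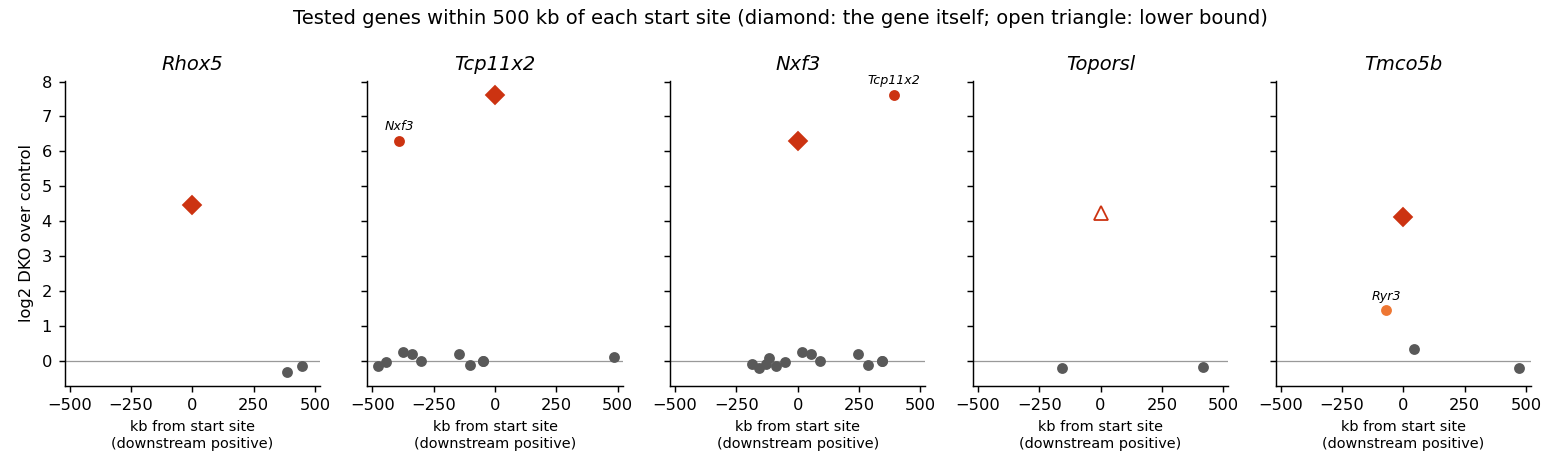
Log2 ratio of DKO over control (y axis) of the tested genes within 500 kb, by the distance of their start from the start of each of the 5 genes (x axis, kb, downstream positive). Diamonds are the gene itself by its ratio of summed counts, the open triangle is the lower bound for Toporsl, red points are another of the 5 genes, and grey and orange points are fitted values of other genes, orange where called (Ryr3, 1.44). Grey points lie within 0.33 of 0.

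On the X chromosome as a whole, without these genes, 10 of 521 tested genes were called higher (1.92%) and 3 lower (0.576%), against 2.17% and 0.827% of 14029 tested genes elsewhere. The median log2 fold change was -0.08 on the X chromosome and 0.00 elsewhere. The share called higher on the X chromosome was thus close to that of the other chromosomes.

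Other testis genes are given by list. Of 47 X-linked testis and cancer-testis genes in the table, 21 had 0 counts in all libraries and 9 were tested. Of these 9, 0 were called by edgeR and 0 by limma-voom, 2 had an unadjusted p below 0.05 and DESeq2 called 1 higher. The most abundant, Xlr3b and Xlr3a, had log2 fold changes of -0.22 and 0.36 (adjusted p = 0.808 and 0.598). Xlr4a, chosen after its values were seen, had 43, 18 and 37 counts in DKO and 2, 5 and 4 in control libraries (0.799 ± 0.375 and 0.135 ± 0.0898 CPM; SD, n = 3 each). It passed the filter only through the DKO libraries, so its edgeR adjusted p of 0.0562 (0.046 with no filter on low counts) is a description only. Xlr genes are near-identical copies, so their counts are uncertain.

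Among autosomal germ cell genes, calls went both ways. Of 15 tested genes of germ cells and meiosis, 1 rose and 3 fell by edgeR and by limma-voom, and 1 rose and 4 fell by DESeq2. Over all tested genes edgeR called 2.19% higher and 0.818% lower. The median log2 fold change was -0.39 against -0.01 over all tested genes. The rise was in Hormad2, a gene of the meiotic chromosome axis, from 0.213 ± 0.096 to 1.11 ± 0.269 CPM (SD over 3 libraries each), a log2 fold change of 2.36 (SE 0.40; adjusted p = 0.0227, edgeR). The falls were in Meioc, which sustains meiotic prophase (-3.51, SE 0.36, adjusted p = 0.0023), Syce2 of the synaptonemal complex (-1.48, SE 0.19, adjusted p = 0.00654) and Stag3, a subunit of meiotic cohesin (-1.13, SE 0.19, adjusted p = 0.0199). Syce2 went from 24.4 ± 5.25 CPM to 8.74 ± 1.35 CPM. Meioc passed the filter only through the control libraries, so it had to differ, and its values are a description. The call of Syce2 held without each library in turn. The call of Hormad2 ended without any 1 library other than DKO replicate 3, and against a 1.5-fold change (adjusted p of up to 0.0799). That of Stag3 ended without DKO replicate 1, control replicate 1 or control replicate 2, and against a 1.5-fold change (up to 0.158).

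Of 14 tested spermatid genes, edgeR and limma-voom each called 3 higher and 0 lower, and DESeq2 called 3 higher and 1 lower, with a median log2 fold change of 0.11. Over all tested genes edgeR called 2.19% higher, and 12.2% of those with a control mean under 0.5 CPM. H1f6, the testis linker histone H1t, passed the filter only through the DKO libraries, so it had to differ. It went from 0.0413 ± 0.00613 to 0.492 ± 0.138 CPM, a log2 fold change of 3.46 (SE 0.50; adjusted p = 0.0118, edgeR). The acrosome genes Spaca1 and Zpbp rose from 0.996 ± 0.219 to 4.11 ± 1.38 CPM and from 0.721 ± 0.115 to 1.90 ± 0.147 CPM. Their log2 fold changes were 2.03 (SE 0.32, edgeR adjusted p = 0.016) and 1.38 (SE 0.24, adjusted p = 0.0247). Each of these 3 calls ended without DKO replicate 1 or any 1 control library, and that of Zpbp also without DKO replicate 2 (adjusted p of up to 0.134). Against a 1.5-fold change those of Spaca1 and Zpbp ended. That of H1f6 held, which is a description only, given how H1f6 passed the filter. The protamine and transition protein genes that define late spermatids were silent: Prm2, Tnp1 and Tnp2 had 0 counts in all libraries and Prm1 had 1, 0 and 2 counts in DKO and 0 in control libraries.

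Defining genes of the cell types in which these genes are normally used had few or no counts, with exceptions. The part of such cells in the results was not tested. The germ cell gene Dppa3 had 0 counts throughout, and Dazl had 2, 1 and 4 counts in DKO and 1, 4 and 1 in control libraries. The germ cell gene Ddx4 had 12, 14 and 15 counts in DKO and 37, 13 and 19 in control libraries. Scaled by library, these were 0.320 to 0.335 CPM (DKO) and 0.583 to 0.828 CPM (control). Its log2 fold change was -1.09 (edgeR adjusted p = 0.0983). The pluripotency gene Pou5f1 had 4, 3 and 1 counts in DKO and 0 in control libraries, without overlap, and was not tested. Amh of Sertoli cells had 46, 46 and 79 counts in DKO and 38, 28 and 26 in control libraries (edgeR adjusted p = 0.417). Scaled by library, these overlapped, at 1.05 to 1.77 CPM (DKO) and 0.850 to 1.26 CPM (control). Fshr of Sertoli cells and Tpbpa of trophoblast had 0 counts in all libraries, and the placental lactogen gene Prl3d1 had 6, 2 and 0 counts in DKO and 0 in control libraries. The summed level of 23 genes of Sertoli, Leydig and epididymis cells was 38.04 to 51.5 (DKO) and 40.5 to 51.2 CPM (control), and 0 of 9 tested genes were called by edgeR, DESeq2 or limma-voom, with 0 at an unadjusted p below 0.05. Of 9 tested trophoblast and extraembryonic endoderm genes, edgeR called 1 higher and 0 lower, against 2.19% and 0.818% of all tested genes. By limma-voom 1 was higher and 0 lower, and by DESeq2 2 were higher and 1 lower. The gene called by edgeR was Afp, a yolk sac and fetal liver gene, with 16, 14 and 15 counts in DKO and 2, 0 and 0 in control libraries, a ratio of 17.2 (counting interval 4.50 to 147; adjusted p = 0.0262). Afp also passed the filter only through the DKO libraries, so it had to differ. That call ended without DKO replicate 1 or any 1 control library, and against a 1.5-fold change (adjusted p of up to 0.1). The summed level of that list was 796 to 891 (DKO) and 878 to 995 CPM (control).

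Genes known to silence the germline were expressed in both groups. The PRC1.6 and DNA methylation lists had summed TMM-scaled levels that were lower in DKO. The list of H3K9 methylation genes includes the targeted Ehmt1 and Ehmt2, so its sum is not compared. By edgeR, the called genes were Ehmt1 and Ehmt2, with 4 genes called without DKO replicate 3. Of 15 tested PRC1.6 genes, 0 were called by edgeR and 0 by limma-voom, and 6 had an unadjusted p below 0.05. DESeq2 called 4 of them lower, against 482 of all 14555 tested genes. The summed level of the PRC1.6 genes was 1748 to 1868 (DKO) and 1943 to 2131 CPM (control), without overlap. Their median log2 fold change was -0.18. The histone deacetylase gene Hdac2 stood at 279 to 299 (DKO) and 322 to 355 CPM (control) (log2 fold change -0.23, SE 0.07, adjusted p = 0.137). Of 13 DNA methylation genes, 0 were called by edgeR, DESeq2 or limma-voom and 1 had an unadjusted p below 0.05. Their sum was 2279 to 2377 (DKO) and 2450.3 to 2554 CPM (control), also without overlap, with a median of -0.08. This separation rests on the TMM scaling, as the sums of the groups overlapped when libraries were scaled by their totals only. Dnmt1, the maintenance methyltransferase gene, had a log2 fold change of -0.14 (adjusted p = 0.281) and Dnmt3a one of -0.01 (adjusted p = 0.961). The 14 H3K9 methylation genes had 0 rises and 2 falls, the targeted Ehmt2 (-1.47, SE 0.08, adjusted p = 0.000208) and Ehmt1 (-0.81, SE 0.10, adjusted p = 0.00476), the latter not against a 1.5-fold change (adjusted p = 0.277). DESeq2 called 3 of the 14 lower.

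**Figure D5:**
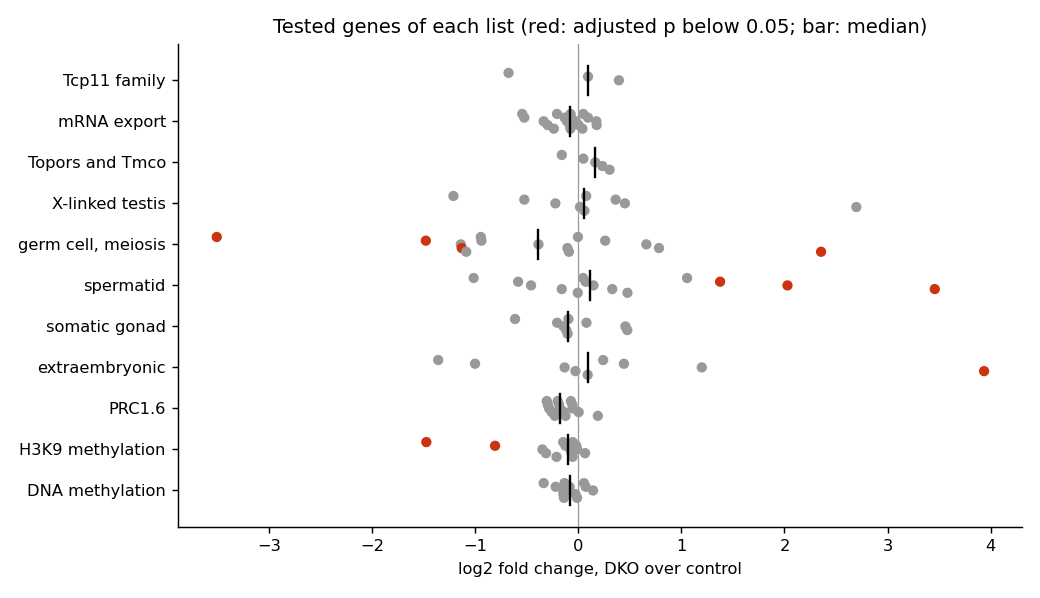
Log2 fold change of DKO over control (x axis) for each tested gene of 11 lists (rows), with red points where edgeR's adjusted p was below 0.05 and a bar at each list's median. Red points lie on both sides for germ cell genes (1 higher, 3 lower) and on the right for spermatid genes (3 higher), and the X-linked testis list has none.

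The genes whose log2 CPM followed each of the 5 most closely over the 6 libraries are given as a description, since any gene that separates the groups well scores high. Among the 5, Pearson's r lay between 0.92 (Rhox5 and Tmco5b) and 0.99 (Rhox5 and Tcp11x2). For Rhox5 the closest other genes were Slc5a4b, Nostrin and Jph2, with r of 0.998, 0.998 and 0.994. For Tcp11x2 they were Ush1c, the X-linked cytokine receptor gene Il2rg and Unc5cl, for Nxf3 Unc5a, Tnnt3 and Ankef1, and for Toporsl Aldh1a7, Akr1c12 and P2rx1, all with r between 0.996 and 0.998. For Tmco5b they were Fbxl12, Tasp1 and Stk16, which differed little between groups in level: the means of Fbxl12 were 22.6 ± 0.488 (DKO) and 19.4 ± 0.652 CPM (control; SD, n = 3 each). All of the others named here were higher in DKO, by a log2 fold change of 0.72 (Jph2) or more. Unc5a, a netrin receptor gene, stood at 17.9 ± 2.73 and 4.55 ± 0.572 CPM, and Il2rg at 3.45 ± 0.181 and 0.721 ± 0.0857 CPM.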

How the data were processed

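Polyadenylated RNA of 3 DKO and 3 control libraries was analysed. The authors deposited raw read counts by gene symbol. The tools named in the submitters' processing notes are STAR 2.7.10a, Trim Galore and Picard, and the build is mm10. How reads were counted (program, strand, annotation) is not given in the sources used here. Columns named WT were matched to the control samples by genotype and replicate number.

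Counts were tested with edgeR 4.0.16 in R 4.3.3: genes kept by filterByExpr (at least 10 counts, total of 15), TMM scaling and the robust quasi-likelihood test, 2-sided, with Benjamini-Hochberg adjustment over all 14555 tested genes. The SE is the log2 fold change divided by the root of F. The test was checked on simulated counts. Counting intervals are exact binomial (95%). Start sites and exons came from GENCODE M21 (20480 of 21006 symbols placed), and upstream windows from RefSeq (GRCm38.p6) for 4 of the 5 genes. Alternatives were a replicate block, RLE, total-count scaling, other filters, DESeq2 1.42.0, limma-voom 3.58.1, a 1.5-fold threshold, other windows and prior counts, and each library left out.

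The genes and lists were chosen with earlier results of these data known. Named genes are the 5 genes, Ehmt1, Ehmt2, fixed close relatives, up to 6 called genes per list or neighbourhood (otherwise the 2 most abundant) and the 3 genes most correlated with each. Defining markers, Xlr4a, other neighbours and single Rhox copies were named after their values were seen. Tcp11x1 was not analysed here.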

Additional observations from a re-analysis of the deposited data

How the results depend on the processing

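The sign of the difference in the 5 genes was fixed by their choice. The fitted log2 fold change ranged from 4.04 to 4.66 for Rhox5, 5.69 to 6.57 for Nxf3 and 3.82 to 5.31 for Tmco5b, and Tmco5b did not pass the filter of 1 CPM in 3 libraries. The difference of mean log2 CPM with a prior count of 2 was 6.33 for Tcp11x2 and 3.54 for Toporsl, and 7.80 and 5.44 with a prior count of 0.5, so the size for genes near 0 counts depends on that choice.

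Of all tested genes 438 were called, against 1106 with DESeq2 and 122 against a 1.5-fold change; leaving out 1 library gave 131 (without DKO replicate 1) to 1106 (without DKO replicate 3). The X chromosome had 13 calls, 44 with DESeq2, 5 against a 1.5-fold change and 3 to 62 with 1 library left out. The testis and extraembryonic lists had 8 calls, 13 with DESeq2, 3 against a 1.5-fold change, 4 with at least 1 CPM in 3 libraries and 2 to 11 with 1 library left out. The lists of silencing genes had 2, with 7 under DESeq2, 1 against a 1.5-fold change and 2 to 4 with 1 library left out. Relatives had 0, with 1 under DESeq2 and 0 to 3 with 1 library left out. Neighbours had 1, with 0 against a 1.5-fold change, 2 within 1000 kb and 0 to 2 with 1 library left out. The cause of these shifts was not tested, though fits without a library have fewer samples.

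The labels do not say whether the replicate numbers pair the samples. Correlations of same-numbered deviations were 0.05, -0.03 and 0.36, which cannot settle this with 3 libraries per group. A replicate block gave 619 calls over all genes and 25 on the X chromosome, against 438 and 13 without it. Not every library correlated best with its own number. Depth limits the controls: 3 counts over the 3 control libraries correspond to 0.0312 CPM.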
